A study of Mus musculus with 62 samples.

Results

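Complex I of the mitochondrial respiratory chain was examined through the mRNA of its nuclear-encoded subunits and of the factors that assemble it, in tibialis anterior muscle of mice injected with melanoma cells. Genes were taken from the deposited table by symbol: Nduf followed by a, b, c, s, v, ab or af and a digit, with pseudogene symbols left out. The rule selected 45 of the 47643 symbols in the table, namely 38 subunits and 7 assembly factors (Ndufaf1 to Ndufaf7). All 45 passed the filter on low values, which kept the 11107 genes whose level averaged 1 TPM or more over the 62 libraries (TPM are transcripts scaled to a total of 1000000 per library). The genes lie on 16 chromosomes, and 2 of them are on the X chromosome.

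Female mice, 2 months old, received melanoma cells that cause cachexia (CAC), melanoma cells that do not (NCAC), or a mock injection (Con), and the muscle was taken 2, 4, 6 or 8 weeks later. Each of the 12 groups had 5 libraries, except the CAC group at 8 weeks, which had 7. The series text names NCI Ath/nude mice, an immunodeficient strain, and the sample labels name C57BL6/J, so the strain is uncertain. The labels call the libraries biological replicates and give no cell line name for either kind of melanoma cell.

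Complex I takes electrons from NADH, passes them along a chain of iron-sulphur clusters to ubiquinone, and pumps protons across the inner mitochondrial membrane. Its matrix arm holds the N module, where NADH is oxidised, and the Q module, where the quinone is reduced, and its membrane arm is described as a proximal and a distal part. Core subunits carry out the catalysis: those of the matrix arm are encoded in the nucleus and those of the membrane arm by mitochondrial DNA. The other nuclear subunits are accessory, and assembly factors bind intermediates of the complex without staying in the finished enzyme. In muscle the complex is more abundant in oxidative than in glycolytic fibres.

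The values are TPM, which are relative within a library and scaled for transcript length, and they keep no record of sequencing depth. Transcripts of mitochondrial DNA took 33.5 to 61.1% of the TPM over the 62 libraries, with a mean of 48.8% in Con and 37.7% in CAC at 8 weeks. Counts and differences are therefore given as deposited and, beside them, after rescaling each library by the median ratio of its genes to their geometric mean. A difference with no scale named is as deposited. As deposited, the median of all genes tested stood 0.38 (log2) higher in CAC than in Con at 6 weeks and 0.46 higher at 8 weeks, and after rescaling it stood at 0.01 and 0.02. Differences are in log2(TPM + 1), tested with limma in 1 fit over all libraries, and a gene counts as called where the Benjamini-Hochberg adjusted p, taken over all genes tested, is under 0.05. CAC replicates 1 and 6 at 8 weeks and CAC replicate 1 at 6 weeks lay farthest from the other libraries on the first principal component. Con replicate 5 at 8 weeks had a mitochondrial share of 58.9%, against 39.9% in the lowest library of its group.

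In the 20 Con libraries of all weeks, subunit mRNAs were more abundant than assembly factor mRNAs. Ndufb9, an accessory subunit of the distal membrane arm, had the highest level (1369 ± 93.5 TPM, SD, n = 20). It was followed by Ndufa4 (715.4 ± 78.1 TPM). At the low end Ndufb2, at 40.0 ± 4.92 TPM, lay within its spread of the most abundant factor, Ndufaf5, at 35.3 ± 3.90 TPM. The 7 factors ran from 13.9 TPM (Ndufaf7) to 35.3 TPM, and the lowest level of all 45 was that of Ndufa4l2 (12.65 ± 2.56 TPM), a paralogue of Ndufa4. No other subunit had a lower mean than any factor.

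The question of the CAC against Con comparison is what a cachexia-causing tumour does to these mRNAs over time. At 8 weeks 24 of the 45 genes fell and 6 rose as deposited. Among all genes tested 5.09% fell and 69.4% rose. On this scale most genes rose, and most of the complex I genes were not among them. The median difference was -0.17 for subunits and -0.22 for assembly factors, against 0.46 for all genes tested. As each library was left out, the median ran from -0.22 to -0.14 for subunits and from -0.26 to -0.13 for factors. Of the 38 subunits 20 fell and 5 rose, and of the 7 factors 4 fell and 1 rose. After rescaling 41 of the 45 fell (35 subunits and 6 factors) and none rose, where 24.2% of all genes fell and 24.9% rose. The rescaled medians were -0.69 for subunits and -0.70 for factors. All 24 genes that fell as deposited also fell after rescaling. None of the 6 that rose as deposited rose after rescaling, and some of them, among them Ndufa3 and Ndufa6, were then called lower.

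**Figure D1:**
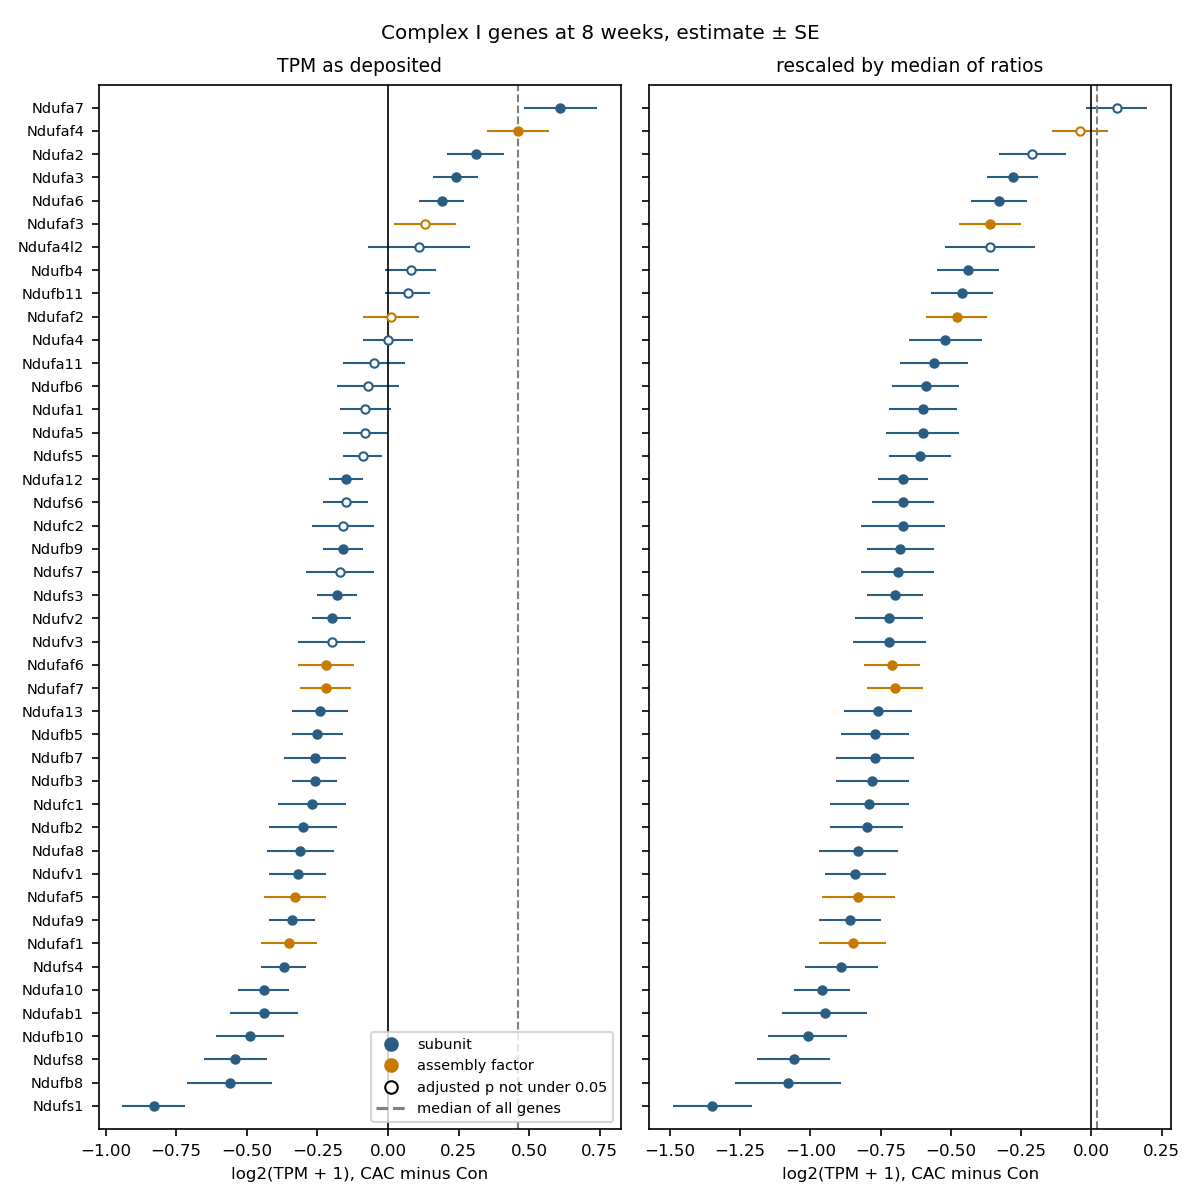
Difference between CAC (n = 7) and Con (n = 5) at 8 weeks for 44 complex I genes, in log2(TPM + 1), as deposited and after rescaling; bars are the standard errors of the limma fit, and the median of all genes tested is marked for each scale. As deposited the genes run from -0.83 (Ndufs1) to 0.61 (Ndufa7), and after rescaling all but Ndufa7 lie below 0.

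The number of genes that fell at 8 weeks depended on single libraries. It was 14 without Con replicate 2, 15 without CAC replicate 1 and 26 at most as each library was left out, and it was 13 without the 3 libraries that lay farthest out (an alternative chosen after seeing the data). In a fit of the 8-week libraries alone it was also 13. After rescaling 40 fell without those 3 libraries. The number that rose was 3 without Con replicate 5. The share of all genes called was not counted in these fits, nor in the later fits that leave out libraries or weeks.

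Ndufs1 fell most. It encodes the largest core subunit of the N module, which carries iron-sulphur clusters, and lies on chromosome 1 at 63143596 to 63176833 (mm10, minus strand). At 8 weeks its levels in Con replicates 1 to 5 were 228, 251, 249.9, 228 and 239 TPM. In the 7 CAC libraries the lowest was 96.5, the median 134 and the highest 179 TPM. Every CAC library thus lay below every Con library, which was true of 4 of the 45 genes and of 0.684% of all genes tested. The difference was -0.83 (SE 0.11, limma adjusted p = 7.17e-09) as deposited and -1.35 after rescaling. It stayed between -0.90 and -0.75 as each library of the comparison was left out.

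**Figure D2:**
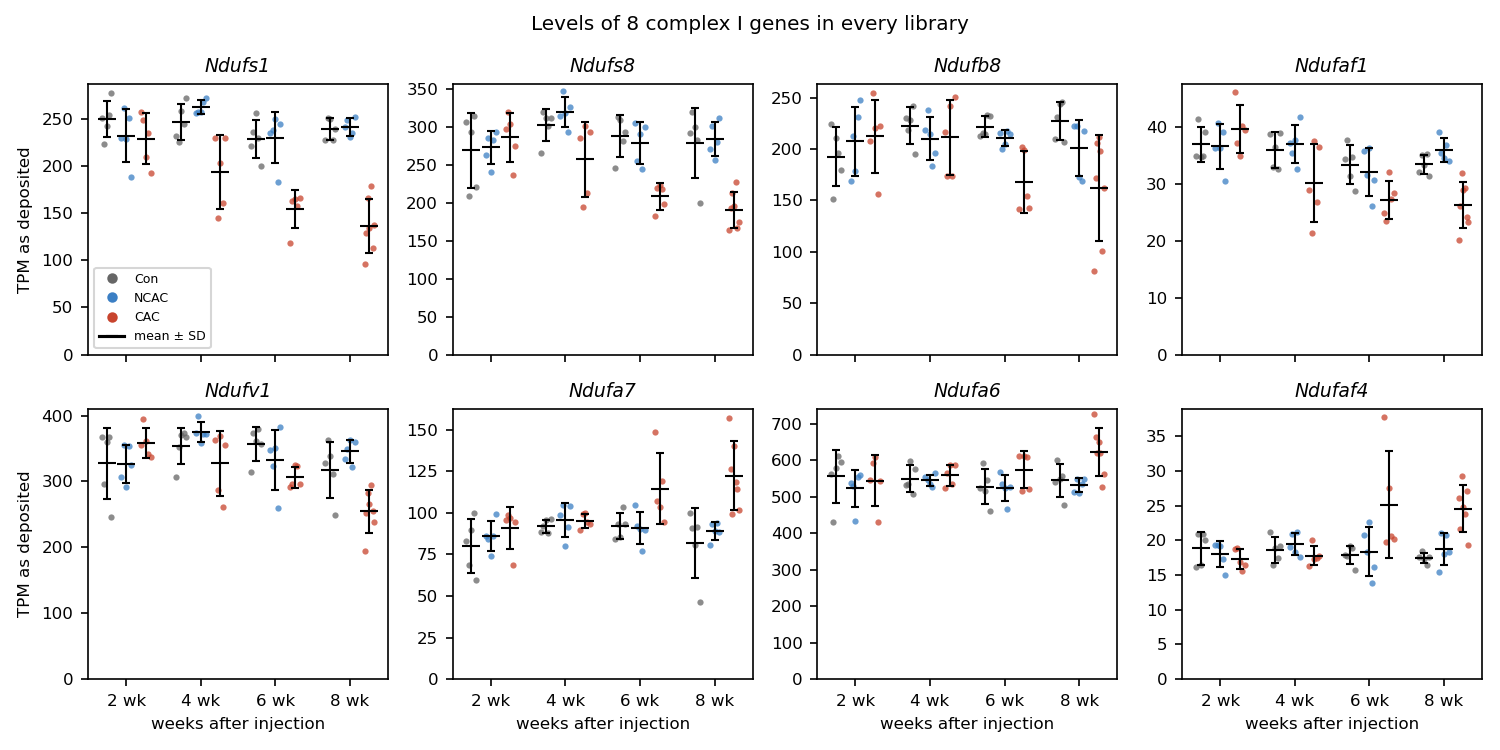
TPM of selected complex I genes in each library, by week and treatment (Con, NCAC, CAC); each point is 1 library, and bars give the group mean ± SD. Ndufs1 is lower in CAC than in Con at 6 and 8 weeks with no overlap, while the mean of Ndufa7 is higher in CAC at those weeks.

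Ndufs1 shares exon bases on the opposite strand with Eef1b2, a translation elongation factor subunit. Eef1b2 rose from 91.4 TPM in Con to 165 TPM in CAC at 8 weeks, with a difference of 0.84 (limma adjusted p = 3.63e-11) as deposited and 0.32 after rescaling. The kit marks strand, but the sources used here do not give whether the authors' counting used it. In all, 17 of the 45 genes share exon bases with a gene of the opposite strand and 3 with a gene of the same strand. For these the 2 genes' reads may have been divided between them.

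Ndufs8 also fell. It is a core subunit of the Q module that carries iron-sulphur clusters, on chromosome 19 at 3908863 to 3912774 (minus strand), and it shares no exon bases with another gene. Its Con levels at 8 weeks were 292, 319, 299, 282 and 199 TPM, and its CAC levels had a lowest of 164, a median of 194 and a highest of 227 TPM. Con replicate 5 was the only Con library within the CAC range. The difference was -0.54 (SE 0.11, limma adjusted p = 2.08e-05), and -1.06 after rescaling.

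Ndufv1, which binds NADH and the flavin of the N module, had Con levels of 328, 363, 339, 311 and 249.6 TPM at 8 weeks. The CAC libraries ranged from 194 to 295 TPM with a median of 255, and they overlapped Con only through Con replicate 5. It fell by 0.32 on the log2 scale (limma adjusted p = 0.00288) as deposited and by 0.84 after rescaling. Ndufv2, an iron-sulphur subunit beside Ndufv1, had Con levels of 361, 381, 359.9, 359 and 369.6 TPM. In CAC its lowest, median and highest were 265, 321 and 372 TPM, so the upper CAC libraries were within the Con range. The difference of Ndufv2 was -0.20 (limma adjusted p = 0.0116), and -0.72 after rescaling.

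Ndufs3 and Ndufs7 are core subunits of the Q module. Ndufs3 fell by 0.18 (limma adjusted p = 0.0172), from 240, 259, 231, 237 and 201 TPM in Con to a lowest of 174, a median of 206 and a highest of 239 TPM in CAC. Those ranges overlapped, the rescaled difference was -0.70, and the call as deposited was lost without CAC replicate 1 (limma adjusted p = 0.0609) or Con replicate 2 (limma adjusted p = 0.0736). Ndufs7, which lines the quinone pocket, did not pass (-0.17, limma adjusted p = 0.215), with 308.5, 316, 279, 304 and 159 TPM in Con. Its CAC libraries had a lowest of 188, a median of 244 and a highest of 299 TPM. Without Con replicate 5, the low library, its difference was -0.35 (limma adjusted p = 0.00573), and after rescaling with all libraries it was -0.69 (limma adjusted p = 2.95e-05).

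The ratio of Ndufs1 to Ndufv1 within a library does not depend on the scale. These are neighbours in the N module, and the pair was chosen after its values were seen, so the ratio is a description. At 8 weeks the ratio was 0.694, 0.692, 0.738, 0.732 and 0.958 in Con, and in CAC its lowest was 0.442, its median 0.511 and its highest 0.606, with no overlap. At 6 weeks the Con libraries had 0.701, 0.631, 0.707, 0.606 and 0.561 and the CAC libraries 0.407, 0.552, 0.508, 0.487 and 0.561, so only Con replicate 5 met the CAC range. At 4 weeks the CAC libraries had 0.630, 0.502, 0.548, 0.616 and 0.646 and the lowest Con library 0.637. At 2 weeks the ratio ran from 0.674 to 1.13 in Con and from 0.572 to 0.724 in CAC, and the groups overlapped. Over all NCAC libraries the ratio lay between 0.579 and 0.785. The highest Con ratios of weeks 2 and 8, 1.13 and 0.958, were in libraries with mitochondrial shares of 58.3% and 58.9%. NCAC replicate 4 at 6 weeks, with a share of 61.1%, had 0.702. A link between ratio and share was not tested. Ndufs1 thus stood lower relative to Ndufv1 in the CAC libraries at 8 weeks, although both genes fell.

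**Figure D3:**
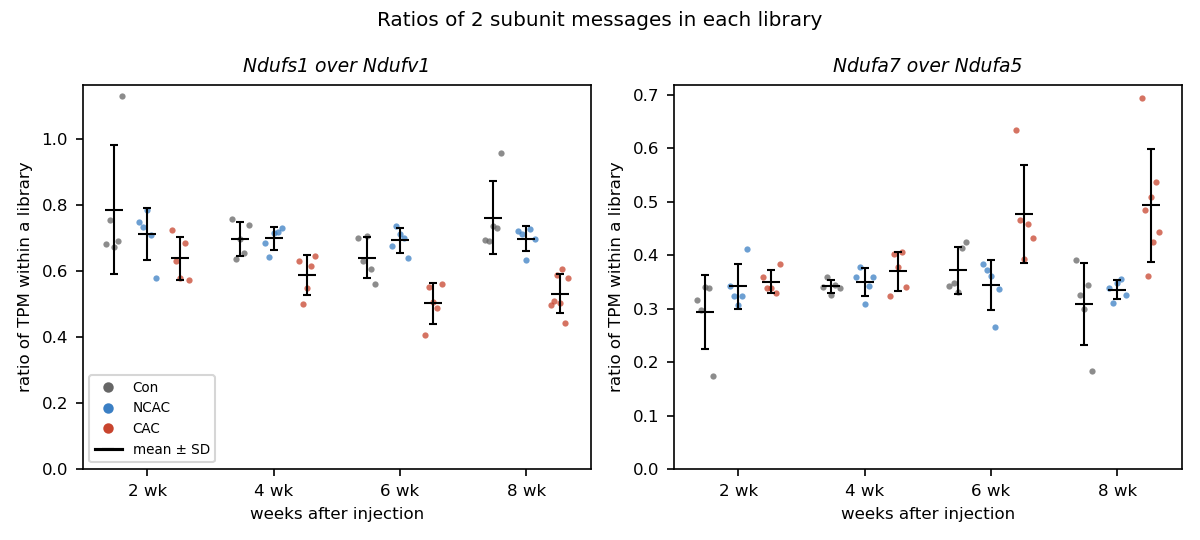
Ratio of TPM within each library for Ndufs1 over Ndufv1 and for Ndufa7 over Ndufa5, by week and treatment; each point is 1 library, bars give the group mean ± SD, and the ratios do not change when a library is rescaled. For Ndufs1 over Ndufv1 the CAC libraries at 8 weeks lie at or below 0.606 and the Con libraries of that week at or above 0.692.

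Among the accessory subunits the decreases were largest in the membrane arm and in the acyl carrier. Ndufb8, a membrane-spanning subunit of the distal arm (chromosome 19, 44548572 to 44555440, minus strand), had 209.9, 231, 244, 246 and 207 TPM in Con at 8 weeks. Its CAC libraries had a lowest of 81.5, a median of 172 and a highest of 211 TPM, and the 2 lowest were replicates 1 and 6. The difference was -0.56 (SE 0.15, limma adjusted p = 0.000776), or -1.08 after rescaling. Its same-strand neighbour Gm20538, which shares exon bases with it, was near 0. Ndufb10, a distal subunit held by disulphide bonds, had 382, 395, 383, 355 and 302 TPM in Con. In CAC its lowest, median and highest were 149, 278 and 371 TPM, and its difference was -0.49 (limma adjusted p = 0.000273), or -1.01 after rescaling. Ndufab1, the mitochondrial acyl carrier protein that sits in both arms, had 56.5, 61.98, 54.2, 56.5 and 45.0 TPM in Con. In CAC it ran from 26.4 to 53.4 TPM with a median of 43.1, a difference of -0.44 (limma adjusted p = 0.000892), or -0.95 after rescaling. The upper CAC libraries of all 3 genes lay within the Con range.

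Ndufa10, a proximal accessory subunit that resembles a nucleoside kinase, separated the groups fully. It ranged from 191 to 255 TPM in Con and from 131 to 187 TPM in CAC, and fell by 0.44 (SE 0.09, limma adjusted p = 3.54e-05), or by 0.96 after rescaling. Ndufs4 of the N module, whose loss causes Leigh syndrome in people, and Ndufb3 of the distal arm also had every CAC library below every Con library. Ndufs4 fell by 0.37 (limma adjusted p = 6.16e-05) and Ndufb3 by 0.26, with rescaled differences of -0.89 and -0.78. The other accessory subunits that fell were Ndufa8, Ndufa9, Ndufa12, Ndufa13, Ndufb2, Ndufb5, Ndufb7, Ndufb9 and Ndufc1, with differences from -0.34 (Ndufa9) to -0.15 (Ndufa12), or -0.86 to -0.67 after rescaling. Ndufa1, Ndufa5, Ndufa11, Ndufb4, Ndufb6, Ndufb11, Ndufc2, Ndufs5, Ndufs6 and Ndufv3 did not pass as deposited, with differences from -0.20 (Ndufv3) to 0.08 (Ndufb4), and all 10 fell after rescaling.

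Ndufb9, the most abundant member, was near the threshold. Its Con libraries had 1307, 1420, 1281, 1298 and 1278 TPM at 8 weeks, and the CAC libraries had a lowest of 942, a median of 1236 and a highest of 1380 TPM. The difference was -0.16 (limma adjusted p = 0.0468), or -0.68 after rescaling. As deposited the call was lost in 8 of 12 fits that left out 1 library, namely each Con library or CAC replicate 1, 6 or 7, and without the 3 libraries that lay farthest out the limma adjusted p was 0.434. Without the same 3 libraries the calls of Ndufs3 and Ndufv2 were also lost, with limma adjusted p of 0.153 and 0.199.

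Of the 5 subunits that rose as deposited, Ndufa7 rose most. It is an accessory subunit of the Q module on chromosome 17 at 33824572 to 33838317 (plus strand), with no overlapping gene. Its Con libraries had 99.7, 91.2, 80.5, 91.6 and 46.3 TPM at 8 weeks, and its CAC libraries a lowest of 99.2, a median of 118.5 and a highest of 157 TPM. Only Con replicate 1 and CAC replicate 3 touched. The difference was 0.61 (SE 0.13, limma adjusted p = 3.54e-05) as deposited and 0.09 (limma adjusted p = 0.521) after rescaling. Its ratio to Ndufa5, a Q-module neighbour that did not pass the test, was 0.309 ± 0.0773 (SD, n = 5) in Con and 0.493 ± 0.106 (SD, n = 7) in CAC, a pair also chosen after its values were seen. The groups overlapped in this ratio, with Con replicate 1 at 0.390 and CAC replicate 3 at 0.361. Con replicate 5 was lowest, at 0.184.

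Ndufa2, Ndufa3 and Ndufa6 also rose as deposited but had rescaled differences of -0.21, -0.28 and -0.33. On the rescaled values Ndufa3 and Ndufa6 were called lower and Ndufa2 was not called, so the direction called for Ndufa3 and Ndufa6 depended on the scale. Ndufa2, a thioredoxin-like subunit of the N module, had 499, 535, 431, 488 and 312 TPM in Con and a lowest of 441, a median of 549 and a highest of 657 TPM in CAC (0.31, limma adjusted p = 0.00775). Ndufa3, a small membrane subunit of the proximal arm, had 245, 243, 214, 235 and 151 TPM in Con. In CAC it ranged from 218 to 272 TPM with a median of 261 (0.24, limma adjusted p = 0.00836). Ndufa6, which binds the acyl carrier on the Q module, had 539.8, 602, 549, 557 and 477.5 TPM in Con and a median of 620.5 and a highest of 726 TPM in CAC, where the lowest library, replicate 6, lay under the Con median (0.19, limma adjusted p = 0.0307). Con replicate 5 was the lowest library for all 3, the ranges overlapped, and without it the differences were 0.18, 0.11 and 0.15 with adjusted p of 0.112 for Ndufa2, 0.168 for Ndufa3 and 0.126 for Ndufa6. The call of Ndufa6 was also lost without CAC replicate 1 (limma adjusted p = 0.0854), 2 (0.0571) or 4 (0.0504).

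Of the assembly factors 4 fell and 1 rose as deposited. Ndufaf1, which builds the membrane arm, is on chromosome 2 at 119655446 to 119662827 (minus strand). Its Con libraries had 32.2, 35.0, 33.4, 35.2 and 31.3 TPM at 8 weeks, and its CAC libraries a lowest of 20.1, a median of 26.2 and a highest of 31.9 TPM. Only CAC replicate 3 reached the Con range. It fell by 0.35 (SE 0.10, limma adjusted p = 0.00218), and by 0.85 after rescaling.

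Ndufaf5, Ndufaf6 and Ndufaf7 fell by less. Ndufaf5, which modifies the core subunit Ndufs7, had 34.0, 38.1, 37.96, 39.9 and 30.1 TPM in Con and a lowest of 19.0, a median of 28.3 and a highest of 41.7 TPM in CAC (-0.33, limma adjusted p = 0.00853). Ndufaf6, a factor of early membrane arm assembly, had 20.9, 22.2, 22.2, 24.7 and 19.2 TPM in Con and a lowest of 13.7, a median of 19.6 and a highest of 24.1 TPM in CAC (-0.22, limma adjusted p = 0.034). Ndufaf7, a methyltransferase that acts on a core subunit, had 12.9, 16.0, 13.9, 13.15 and 12.6 TPM in Con. Its CAC libraries ran from 7.66 to 15.2 TPM with a median of 11.7 (-0.22, limma adjusted p = 0.0209). The groups overlapped for all 3, and without the 3 libraries that lay farthest out the adjusted p was 0.136, 0.127 and 0.310 in the same order. The call of Ndufaf6 was also lost without CAC replicate 1 or 7 or Con replicate 2, 3 or 4, and that of Ndufaf7 without CAC replicate 1 (where it fell by 0.13) or Con replicate 2. After rescaling the 3 differences were -0.83, -0.71 and -0.70.

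Ndufaf4, which binds the Q module during assembly together with Ndufaf3, was the factor that rose as deposited. It lies on chromosome 4 at 24898083 to 24905001 (plus strand). Its Con libraries had 17.6, 18.4, 17.3, 16.5 and 17.6 TPM at 8 weeks, and its CAC libraries a lowest of 19.4, a median of 24.8 and a highest of 29.2 TPM. Every CAC library lay above every Con library, which was true of 1 of the 45 genes and of 38% of all genes tested. The difference was 0.46 (SE 0.11, limma adjusted p = 0.000239) as deposited and -0.04 (limma adjusted p = 0.763) after rescaling. After group means were removed, the median of its correlations with the other complex I genes over the 62 libraries, which share 1 scale per library, was 0.06 (0.19 after rescaling), the lowest of the 45. Ndufaf2 and Ndufaf3 did not pass as deposited, with differences of 0.01 and 0.13, and fell after rescaling, by 0.48 and 0.36.

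Ndufa4 and Ndufa4l2 match the naming rule, but Ndufa4 is now counted among the subunits of complex IV. Ndufa4 had 697, 690.1, 648, 637 and 637 TPM in Con at 8 weeks and a lowest of 524.5, a median of 709 and a highest of 736 TPM in CAC. The difference was 0.00 (limma adjusted p = 0.976), and -0.52 after rescaling (limma adjusted p = 0.000734). Both genes are counted with the subunits here, and Ndufa4 is among those that fell after rescaling. Ndufa4l2, a paralogue known as a hypoxia-responsive gene, had 10.8, 16.05, 12.55, 10.7 and 7.45 TPM in Con. Its CAC libraries ran from 8.05 to 19.6 TPM with a median of 12.7, and the difference was 0.11 (limma adjusted p = 0.582) as deposited and -0.36 after rescaling.

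By module, against 5.09% of all genes lower and 69.4% higher, the distal membrane arm had 7 of 10 lower at 8 weeks, none higher and a median of -0.25. Ndufb9, near the threshold, is 1 of those 7. In the N module 5 of 8 fell and 1 rose (median -0.20), and in the proximal membrane arm 4 of 9 fell and 1 rose (median -0.16). The Q module was divided as deposited, with 3 of 8 lower, 3 higher and a median of -0.12. After rescaling, where 24.2% of all genes fell and 24.9% rose, the 4 medians lay between -0.77 and -0.64, and 7 of 8, 9 of 9, 7 of 8 and 10 of 10 fell in the N module, proximal arm, Q module and distal arm. Differences between modules were not tested.

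Promoter sequences are shown for 4 genes whose values are given above, to set a factor that rose as deposited beside a factor and 2 subunits that fell. RefSeq (GRCm38.p6, the build also called mm10) gave windows of 300 bases, from 250 before to 50 after a transcript start, for 39 of the 45 genes. Each stretch is the 150 bases before the start, 5′ to 3′ on the gene's strand, with capitals for a match to a searched motif.
Ndufaf4, chr4:24897933-24898082, plus strand: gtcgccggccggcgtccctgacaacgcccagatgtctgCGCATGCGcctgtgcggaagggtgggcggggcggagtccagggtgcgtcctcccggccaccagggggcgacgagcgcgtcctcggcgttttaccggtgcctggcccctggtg
Ndufaf1, chr2:119662835-119662984, minus strand: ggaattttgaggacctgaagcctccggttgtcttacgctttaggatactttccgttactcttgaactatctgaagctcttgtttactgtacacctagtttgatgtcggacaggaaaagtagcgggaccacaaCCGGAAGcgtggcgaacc
Ndufs8, chr19:3912775-3912924, minus strand: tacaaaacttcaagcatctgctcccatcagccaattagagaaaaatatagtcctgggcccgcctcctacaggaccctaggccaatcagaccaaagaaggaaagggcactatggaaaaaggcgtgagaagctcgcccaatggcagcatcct
Ndufb8, chr19:44555443-44555592, minus strand: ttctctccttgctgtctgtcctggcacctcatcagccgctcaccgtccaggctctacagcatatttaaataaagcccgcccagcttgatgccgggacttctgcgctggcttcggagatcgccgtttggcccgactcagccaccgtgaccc

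The capitals mark an NRF1 motif (CGCATGCG) in Ndufaf4 and a GABPA/ETS motif (CCGGAAG) in Ndufaf1, and neither of the other stretches holds a searched motif (Ndufs8 has a GABPA/ETS match on the opposite strand just after its start). NRF1, ERR, GABPA and YY1 are transcription factors known to bind promoters of respiratory chain genes. Over whole windows and both strands, the NRF1 letters were in 10.3% of the 39 genes and in 2.07% of all 27025 genes with a window. The YY1 motif (AAGATGGCG) was in 12.8% against 1.64%, GABPA/ETS in 12.8% against 9.93%, and the ERR site (AAGGTCA) in 7.69% against 5.38%. Among the 21 genes with a window that fell at 8 weeks on both scales, the shares were 9.52% for NRF1, 14.3% for YY1, 19.0% for GABPA/ETS and 4.76% for ERR. A match is a run of letters and not a measured binding site.

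Over time, complex I genes were first called against Con at 6 weeks. At 2 weeks none of the 45 was called, where 0% of all genes were called lower and 0.054% higher. At 4 weeks none was called as deposited, where 0.045% of all genes were called lower and 0.891% higher. None was called after rescaling either, where 0.612% of all genes were called lower and 0.882% higher. At an unadjusted p under 0.05 there was 1 gene at 2 weeks. At 4 weeks there were 11 as deposited and 22 after rescaling. The share of all genes at that looser threshold is not given here, so these counts have no background beside them. The 4-week medians were -0.12 for subunits and -0.19 for factors, against 0.11 for all genes, and each of the 45 differences lay under that of the median gene. Ndufs1 at 4 weeks had 229, 144.5, 203, 161 and 230.1 TPM in the CAC libraries against a Con mean of 246 ± 19.1 TPM (SD, n = 5), and its difference of -0.37 did not pass (limma adjusted p = 0.133), nor did the rescaled difference of -0.50 (limma adjusted p = 0.0897).

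At 6 weeks 11 of the 45 fell and 2 rose as deposited, where 3.26% of all genes fell and 60.7% rose. After rescaling 41 fell and none rose, where 18.1% of all genes fell and 16.9% rose. The medians as deposited were -0.15 for subunits and -0.12 for factors, against 0.38 for all genes, and after rescaling -0.58 and -0.55, against 0.01. Ndufs1 had 221, 235.5, 256, 229.6 and 200.4 TPM in Con and 119, 163, 165, 157 and 166 TPM in CAC, with no overlap. The difference of Ndufs1 was -0.57 (SE 0.12, limma adjusted p = 7.2e-05), or -1.01 after rescaling. Ndufs8 had 245, 312, 309, 281 and 292 TPM in Con and 183, 219, 223, 218 and 197.5 TPM in CAC, also apart (-0.46, limma adjusted p = 0.000668, or -0.90 after rescaling). The share of all genes separated in this way was counted only at 8 weeks, where 0.684% lay wholly below Con. The others that fell included Ndufc1 (-0.44), Ndufb8 (-0.42), Ndufb10 and Ndufab1 (both -0.34) and, among factors, Ndufaf1 (-0.29). Their rescaled differences were -0.87, -0.85, -0.78, -0.77 and -0.71 in the same order.

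Ndufaf4 was among those that rose at 6 weeks. It had 17.8, 17.8, 19.1, 18.9 and 15.8 TPM in Con and 37.7, 19.7, 27.5, 20.6 and 20.1 TPM in CAC, all above Con. At 8 weeks 38% of all genes tested lay wholly above Con, and that share was not counted at 6 weeks. The difference of Ndufaf4 was 0.43 as deposited and 0.27 without CAC replicate 1, the highest library. After rescaling it was 0.01 (limma adjusted p = 0.956). The number of genes that fell was 6 without CAC replicate 1 and 17 without Con replicate 1. Without CAC replicate 1 the adjusted p was 0.0592 for Ndufaf1, 0.0691 for Ndufb8 and 0.0846 for Ndufab1. These calls were also lost without CAC replicate 2 or Con replicate 2 for Ndufaf1, CAC replicate 5 for Ndufb8 and Con replicate 3 for Ndufab1.

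**Figure D4:**
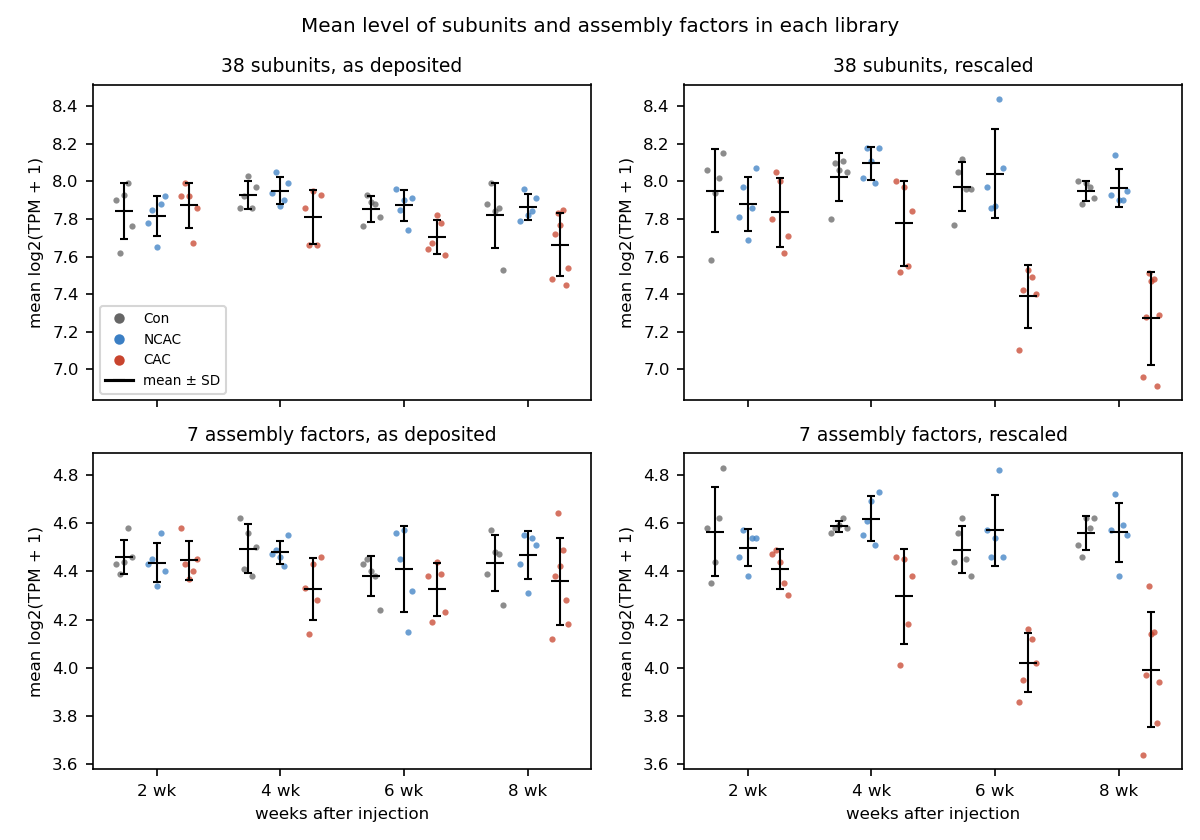
Mean log2(TPM + 1) of the subunits and of the assembly factors in each library, by week and treatment, as deposited and after rescaling; each point is 1 library, and bars give the group mean ± SD. After rescaling the subunit means at 8 weeks lie between 6.91 and 7.51 in CAC and between 7.88 and 8.00 in Con.

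Whether the CAC against Con difference itself changed between weeks was tested directly. From 4 to 6 weeks no complex I gene was called for a change in its difference, where 0.882% of all genes were called. From 6 to 8 weeks none was called, where 0% of all genes were called. At an unadjusted p under 0.05 there was 1 from 4 to 6 weeks and 0 from 6 to 8 weeks. A change too small to be called is not excluded. After rescaling none was called from 4 to 6 weeks either, and 16 were at an unadjusted p under 0.05. The share of all genes at an unadjusted p is not given here, so these counts have no background beside them. The mean of Ndufs1 in CAC was 229, 193.5, 154 and 136 TPM at 2, 4, 6 and 8 weeks, and in Con 249.8, 246, 228 and 239 TPM.

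Subunits and factors were set against each other within each library. The mean of the subunits minus that of the factors within a library, in log2, was 3.39 in Con and 3.30 in CAC at 8 weeks, and 3.48 and 3.38 at 6 weeks. The Con and CAC libraries overlapped in this measure at both weeks, and no test was made. As deposited the subunit mean was 7.82 ± 0.172 (SD, n = 5) in Con and 7.66 ± 0.169 (SD, n = 7) in CAC at 8 weeks, and after rescaling 7.95 ± 0.0524 and 7.27 ± 0.248. The factor mean was 4.43 ± 0.116 in Con and 4.36 ± 0.181 in CAC, and after rescaling 4.56 ± 0.071 and 3.99 ± 0.24. By these means the decrease at 8 weeks was smaller for factors than for subunits, whereas by the 8-week medians it was slightly larger for factors. At 6 weeks the medians as deposited were -0.15 for subunits and -0.12 for factors, so by them the decrease was slightly smaller for factors.

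The NCAC mice carried melanoma cells of the kind that does not cause cachexia. Against Con, NCAC had no complex I gene called in any week, and none at an unadjusted p under 0.05, with differences from -0.19 to 0.17 over the 4 weeks. Among all genes 0.162% were called at 2 weeks, 0% at 4 and 6 weeks and 0.009% at 8 weeks. Mean Ndufs1 in NCAC was 232, 262, 230.1 and 241 TPM at 2, 4, 6 and 8 weeks.

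CAC was also compared with NCAC, with the same CAC libraries as in the comparison with Con. At 2 weeks no complex I gene was called and none had an unadjusted p under 0.05 (all genes: 0% lower, 0.063% higher). At 4 weeks Ndufs1 alone fell as deposited, by 0.46 (SE 0.12, limma adjusted p = 0.0137), where 0.585% of all genes fell and 4.68% rose. Its decrease was 0.64 after rescaling. All 5 CAC libraries were under the lowest NCAC library, and the share of all genes separated in this way was not counted. The call of Ndufs1 was lost without CAC replicate 2 or 4, while 6 genes fell without CAC replicate 1, also 6 without CAC replicate 3, and 3 without CAC replicate 5. After rescaling 10 fell at 4 weeks, where 3.66% of all genes fell and 2.8% rose.

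At 6 weeks 14 of the 45 were lower in CAC than in NCAC and 3 higher (all genes: 3.52% and 64.2%), and after rescaling 42 were lower and none higher (all genes: 21.7% and 20.8%). The number lower was 7 without CAC replicate 1 and 9 without NCAC replicate 1. At 8 weeks 25 were lower and 4 higher (all genes: 5.04% and 67%), and after rescaling 42 and none (all genes: 24.3% and 25.3%). The number lower was 12 without the 3 libraries that lay farthest out and 16 in a fit of the 8-week libraries alone. Ndufs1 had the largest decrease, by 0.85 (limma adjusted p = 4.65e-09), from 241 ± 9.23 TPM (SD, n = 5) in NCAC. Ndufs8 fell by 0.58 (limma adjusted p = 7.01e-06) and Ndufaf1 by 0.45 (limma adjusted p = 0.000128). Rescaled, these 3 fell by 1.33, 1.07 and 0.92. Those that rose as deposited included Ndufa7 (0.44), Ndufaf4 (0.37) and Ndufa6 (0.22), whose rescaled differences were -0.05, -0.10 and -0.27.

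Markers of muscle fibres and of other cells were read in the same libraries at 8 weeks, against the 69.4% of all genes that rose as deposited and the 24.9% that rose after rescaling. Markers of oxidative or slow fibres summed to 6901 to 10330 TPM in Con and 1918 to 5113 TPM in CAC, with 3 of 8 lower on both scales: myoglobin (Mb) fell from 7663 to 3021 TPM, while slow myosin Myh7 was near 0 in both groups. Fast-fibre markers summed to 66140 to 107700 TPM in Con and 67950 to 109300 TPM in CAC, so these transcripts were abundant in both groups. As deposited 3 of the 8 rose (Ckm, Tnni2 and Actn3) and Pvalb fell by 0.74, and after rescaling none rose and 3 fell (Acta1, Tnnt3 and Pvalb). Macrophage markers summed to 30.8 to 59.8 TPM in Con and 53.2 to 160 TPM in CAC, with 4 of 4 tested higher as deposited and 1 (Mrc1) after rescaling. Adipocyte markers summed to 413 to 444 TPM and 656 to 975 TPM, with 3 of 4 tested higher as deposited and 1 (Cfd) after rescaling. Endothelial markers summed to 82.5 to 124 TPM and 147 to 190 TPM, with 3 of 4 higher and Kdr lower as deposited, and 2 higher and Kdr lower after rescaling. Red blood cell markers summed to 14680 TPM in CAC replicate 3, against 147 to 996 TPM in the other CAC libraries and 323 to 1165 TPM in Con, and without that library 24 complex I genes fell and 6 rose. Melanocyte markers summed to at most 1.01 TPM in every group. The part of these cells in the complex I differences was not tested, and in bulk muscle fewer cells of a type cannot be told apart from less RNA per cell.

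Other respiratory chain genes give the setting of these values at 8 weeks. Of the 7 mitochondrially encoded complex I subunits 5 fell and none rose (median -0.26, or -0.79 after rescaling), and mt-Nd1 fell from 33830 to 25280 TPM. Complex II had 4 of 4 lower (median -0.43) on both scales (rescaled median -0.95), and complex III 5 of 9 lower (median -0.23), or 9 of 9 after rescaling (median -0.75). Complex IV had 4 of 13 lower and 3 higher (median -0.08), or 10 lower and none higher after rescaling (median -0.60). ATP synthase had 6 of 15 lower and 1 higher (median -0.20), or 14 lower and none higher after rescaling (median -0.72). The complex I assembly factors that are not named Nduf, such as Acad9 and Ecsit, had none of 8 tested lower and 2 higher (median 0.05), and after rescaling 7 of 8 lower (median -0.45). The assembly factors of complexes II to V had 7 of 32 tested lower and 9 higher (median 0.03), or 21 lower and none higher after rescaling (median -0.47). Over all genes the shares were those given above, 5.09% lower and 69.4% higher as deposited and 24.2% and 24.9% after rescaling. The median of the complex I subunits, -0.17, lay within the range of these lists, and differences between lists were not tested.

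**Figure D5:**
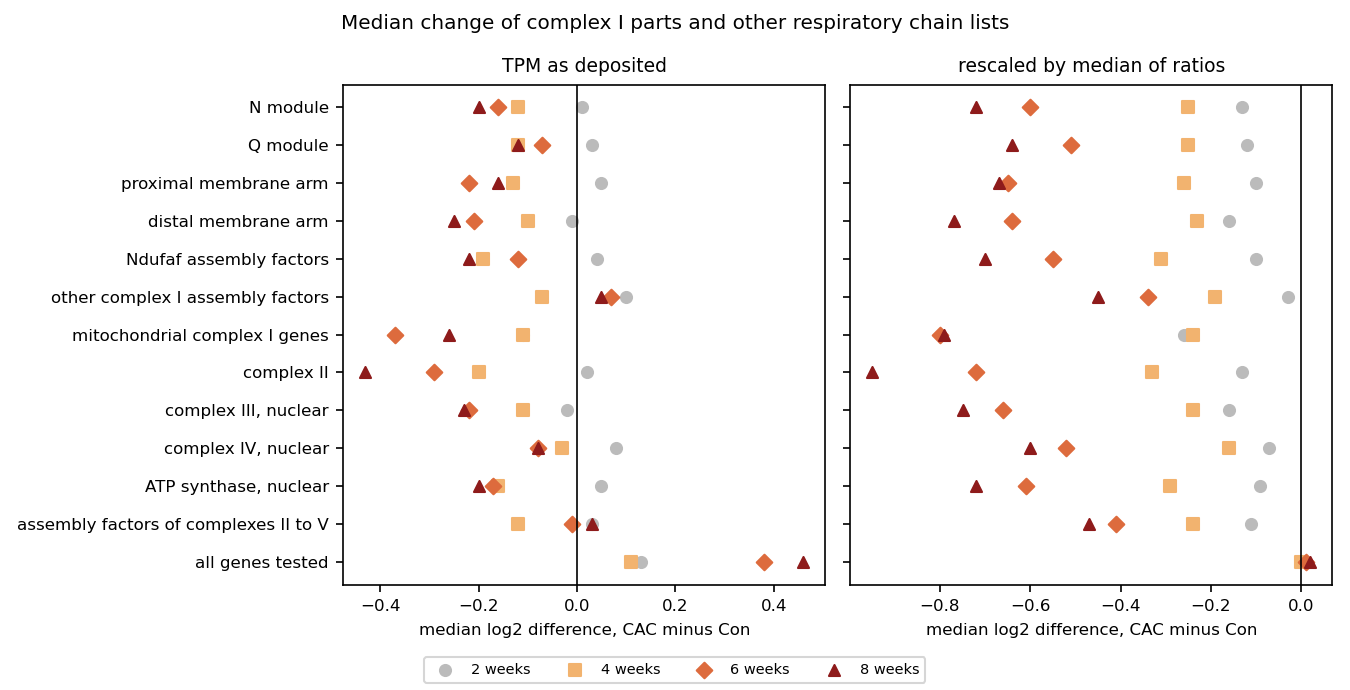
Median CAC against Con difference at 2, 4, 6 and 8 weeks, in log2(TPM + 1), of the complex I modules, the Ndufaf assembly factors, the other respiratory chain lists and all genes tested, as deposited (left) and after rescaling (right); each symbol is 1 week. At 8 weeks every list lies below all genes tested on both scales, with the distal membrane arm at -0.25 as deposited.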

How the data were processed

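RNA of tibialis anterior was sequenced from stranded mRNA libraries (62, in 12 groups of 5 or 7), as the protocols in the labels state. A single table of TPM for 47643 symbols was made by the authors on mm10, per the submitters' processing notes. Which aligner, counter and annotation they used is not given in the sources used here. Each column sums to 1000000, so sequencing depth is unknown and no counting error can be given. The precision comes from the spread between libraries.

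Genes averaging 1 TPM or more were tested (11107 of the 23019 with a value above 0). In R 4.3.3, limma 3.58.1 was fitted to log2(TPM + 1) with 1 mean per group over all libraries, a mean-variance trend and 50 residual degrees of freedom, which pools the spread over groups. P-values were adjusted by Benjamini-Hochberg within each of the 14 contrasts. A log2(TPM + 1) difference understates the change of low genes. The code of the fit was run on simulated data in which few genes changed and the noise was independent between genes. The data here differ in both respects, so that run does not bear on the calls given. Gene positions and overlaps come from the GENCODE annotation of mm10.

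Alternatives were rescaling by the median of ratios (size factors 0.613 to 1.47), removal of mitochondrially encoded genes, a pseudocount of 0.1, no filter, only the compared weeks, library weights, a replicate block and leaving out each library. For a set of genes the 8-week values are given by library in Con and mostly as lowest, median and highest in CAC. These are the nuclear core subunits, factors called at 6 or 8 weeks, the 5 subunits with the largest changes each way at 8 weeks, Ndufa4, Ndufa4l2 and the highest and lowest subunits in Con. The values of 1 gene are not reported here. The genes and lists were chosen with earlier results of these data known. Among 131 pairs of libraries of 1 group none was identical, and the highest correlation was 0.9907. The labels do not say that libraries come from separate animals beyond calling them biological replicates. The extraction text names a time after injection of another tumour line, which was not used for grouping.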

Additional observations from a re-analysis of the deposited data

Results flagged for a closer look

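In 132 sets of libraries of 1 group, the highest or lowest library was compared with the range of its group, a check that chance meets in about 1 of 20 sets. It was met 6 times. Ndufs1 in CAC replicate 1 at 6 weeks was low, at 118.8 TPM. Ndufs7 in Con replicate 5 at 8 weeks was low, at 158.9 TPM, in the library with the mitochondrial share of 58.9%. Ndufb9 in Con replicate 2 at 8 weeks was high, at 1420 TPM. The mean of the subunits minus that of the assembly factors was low, at 3.24 (log2), in Con replicate 1 at 4 weeks. The ratio of Ndufs1 to Ndufv1 was high in Con replicate 5 at 2 weeks, at 1.13, and in Con replicate 5 at 8 weeks, at 0.958.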

How the results depend on the processing

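Counts here are of the 45 complex I genes, against Con unless NCAC is named. The share of all genes called was counted for the main fit and for rescaling of all libraries. For the other alternatives it was not counted, so their counts have no background beside them. For each alternative only counts that moved beyond a set limit from the main fit are listed. A count left out, such as that of genes lower at 8 weeks without mitochondrially encoded genes, stayed within the limit. Under rescaling 41 were lower and 0 higher at 6 and at 8 weeks, and against NCAC 10 were lower at 4 weeks and 42 lower and 0 higher at 6 and 8 weeks. Rescaled directions turned at 6 weeks for Ndufa7 (-0.14), Ndufa2 (-0.31), Ndufa3 (-0.35) and Ndufa6 (-0.32), and at 8 weeks for Ndufaf4 (-0.04), Ndufa2 (-0.21), Ndufa3 (-0.28), Ndufa6 (-0.33) and Ndufa4l2 (-0.36). Without mitochondrially encoded genes 32 were lower and 0 higher at 6 weeks and 1 higher at 8 weeks, and against NCAC 6 were lower at 4 weeks, 38 lower and 0 higher at 6 weeks and 0 higher at 8 weeks. Directions then turned for Ndufa2 (-0.11), Ndufa3 (-0.15) and Ndufa6 (-0.11) at 6 weeks and for Ndufa3 (-0.05), Ndufa6 (-0.10) and Ndufa4l2 (-0.16) at 8 weeks.

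With a pseudocount of 0.1, 2 were lower than in NCAC at 4 weeks. With library weights 1 was lower at 4 weeks, 7 and 8 were lower than in NCAC at 4 and 6 weeks, and 1 changed in its difference from 4 to 6 weeks. With only the compared weeks 13 were lower at 8 weeks, and 4 and 16 were lower than in NCAC at 4 and 8 weeks. Of 60 pairs of libraries with the same number, 15 correlated above 0.1 and 13 correlated best with their own number, so the numbers were not taken to pair animals. With a replicate block 11 were lower at 8 weeks, and 2 and 15 were lower than in NCAC at 4 and 8 weeks.

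Without the 3 libraries farthest out (an alternative chosen after seeing the data) 1 and 13 were lower at 4 and 8 weeks, and 7, 9 and 12 were lower than in NCAC at 4, 6 and 8 weeks. With rescaling as well, 5, 41 and 40 were lower at 4, 6 and 8 weeks with 0 higher, and 22, 42 and 39 were lower than in NCAC with 0 higher. Directions then turned at 6 weeks for Ndufaf4 (-0.09), Ndufa7 (-0.17), Ndufa2 (-0.28), Ndufa3 (-0.32) and Ndufa6 (-0.28), and at 8 weeks for Ndufaf4 (-0.03), Ndufa2 (-0.18), Ndufa3 (-0.24), Ndufa6 (-0.27) and Ndufa4l2 (-0.19).

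As each library was left out, 0 to 1 were lower at 4 weeks, 6 to 17 at 6 weeks and 14 to 26 at 8 weeks, and 3 to 6 were higher at 8 weeks. Against NCAC 0 to 6 were lower at 4 weeks and 7 to 17 at 6 weeks. The differences of Ndufa4 (-0.08 to 0.01) and Ndufa4l2 (-0.12 to 0.06) at 6 weeks and of Ndufa4l2 at 8 weeks (-0.02 to 0.24) changed sign. The causes were not tested. TPM keep no depth, so depth could not be weighed for any gene.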
